A study of Mus musculus with 32 samples.

Results

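The regions described here are stretches of the mouse genome that appeared in the H3K27me3 peak list of PRC1cKO oocytes at postnatal day 6 (P6) and in none of the 3 control lists of the same stage. They were selected on measured values: an autosomal row of the PRC1cKO P6 list belonged when it was at least 3000 bp wide and when no row of the PRC1ctrl, PRC2ctrl or WT P6 H3K27me3 lists met it by even 1 bp. This left 3716 of the 43716 autosomal PRC1cKO P6 rows of that width (8.50%), out of 50744 rows in the PRC1cKO P6 list and 1035144 rows in the 16 lists of the series. Together they covered 17.1 Mb.

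The lists came from CUT&Tag, an assay that tethers a transposase to an antibody-bound histone mark and sequences the fragments it releases. In all, 32 oocyte samples formed 16 groups of 2, and each group had 1 peak list. PRC1cKO oocytes carried the genotype Ring1-/-, Ring1F/-, Ddx4-Cre per the labels, and were profiled as non-growing oocytes at P6 and growing oocytes at P7. PRC2cKO oocytes (EedF/-, Ddx4-Cre) were non-growing at P6. The PRC1ctrl oocytes (Ring1-/-, Rnf2F/+, Ddx4-Cre; P6 and P7) lacked Ring1 as the PRC1cKO did, the PRC2ctrl oocytes (P6) were EedF/+ with Ddx4-Cre, and WT oocytes were taken before birth at E18.5 and after birth at P1, P6 and P7. Ddx4-Cre is a recombinase driven in germ cells, so other ovarian cells keep the floxed gene. The PRC1cKO label names Ring1 for the floxed allele where its control names Rnf2. A Ring1-/- genotype leaves no Ring1 allele to be floxed, so that label conflicts with itself. Reading the floxed gene as Rnf2, as in the control, would remove the conflict, but the label does not state it. H2AK119ub was profiled in the WT, PRC2ctrl and PRC2cKO groups, and no H2AK119ub list of the PRC1 groups was used here.

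Polycomb repressive complex 2 (PRC2), with Eed as a core subunit, places H3K27me3. Polycomb repressive complex 1 (PRC1), whose catalytic subunits are Ring1 and Rnf2, places H2AK119ub. Each complex can be recruited by the mark of the other, and in oocytes H3K27me3 forms broad domains that extend far beyond the promoters of developmental genes. The label under which these regions were collected calls them ectopic. That word goes against part of the data, since 1422 of them (38.3%) were met by a WT H3K27me3 row at E18.5 or P1, so they are called PRC1cKO-only regions here, with P6 understood.

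Most of these regions lay far from protein-coding starts, but a few crossed an annotated start. The RefSeq promoters (build GRCm38.p6, 250 bases before to 50 after the start) of 3 listed genes that such a region covered are given to show the range of CG content, from sparse at the imprint regulator Zfp57 and the maintenance DNA methyltransferase Dnmt1 to dense at the cell survival gene Bcl2. Capitals mark CG pairs. The Zfp57 promoter shown (chr17:37000913-37001212, plus strand) held 6 CG pairs in 300 bases, that of Dnmt1 (chr9:20959839-20960138, minus strand) held 2, and that of Bcl2 (chr1:106714241-106714540, minus strand) held 44. Zfp57 and Dnmt1 have further annotated starts, so each sequence stands for the start shown and not for every promoter of the gene.
Zfp57: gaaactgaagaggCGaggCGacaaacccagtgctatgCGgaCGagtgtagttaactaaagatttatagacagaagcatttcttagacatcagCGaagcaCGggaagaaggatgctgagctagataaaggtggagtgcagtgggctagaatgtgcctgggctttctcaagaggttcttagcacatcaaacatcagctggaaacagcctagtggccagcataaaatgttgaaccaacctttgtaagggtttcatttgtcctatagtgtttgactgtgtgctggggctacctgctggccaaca
Dnmt1: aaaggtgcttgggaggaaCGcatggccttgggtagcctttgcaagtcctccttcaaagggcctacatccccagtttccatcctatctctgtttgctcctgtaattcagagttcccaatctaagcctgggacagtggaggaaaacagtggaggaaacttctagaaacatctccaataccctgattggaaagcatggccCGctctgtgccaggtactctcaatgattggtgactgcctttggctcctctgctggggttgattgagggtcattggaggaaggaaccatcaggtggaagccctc
Bcl2: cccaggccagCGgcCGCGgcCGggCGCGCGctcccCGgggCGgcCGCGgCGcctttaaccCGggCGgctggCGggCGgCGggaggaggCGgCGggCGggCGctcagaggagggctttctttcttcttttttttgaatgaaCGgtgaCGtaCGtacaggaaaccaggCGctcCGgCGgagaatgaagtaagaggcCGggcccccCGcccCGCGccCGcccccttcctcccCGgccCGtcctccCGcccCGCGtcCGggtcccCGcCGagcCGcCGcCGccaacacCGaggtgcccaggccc

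Across the 78 protein-coding promoters that PRC1cKO-only regions covered, the median was 5.5 CG pairs and 52.7% GC, and 33.3% held 10 or more CG pairs. PRC1ctrl-only regions, found by the same rule with the 2 PRC1 lists exchanged, covered 80 promoters with a median of 17 CG pairs and 63.0% GC. WT-only regions covered 78 promoters with a median of 4 CG pairs. All 20085 promoters had a median of 14. The low CG content was therefore shared with the WT-only regions, and no test was possible with 1 list per group.

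The number of such regions was read against the same rule applied to each other P6 list, with the PRC1cKO and the 3 controls as the compared lists. PRC2cKO rows that met none of the 4 lists numbered 773 of 33487 (2.31%). The rule left 2405 of 43958 rows for PRC1ctrl (5.47%), 1978 of 41823 for PRC2ctrl (4.73%) and 3513 of 54122 for WT (6.49%). The PRC1cKO-only share of wide rows was above the PRC1ctrl-only share on 19 of 19 autosomes. The autosomes are parts of the same lists that chose the regions, so this tally is a description and not replication. WT-only shares were not computed by chromosome. The place of PRC1cKO above all 3 controls did not hold under every setting. With all lists trimmed by total signal to the same covered length, the PRC1cKO-only share was 10.4%, against 4.64% for PRC1ctrl, 1.57% for PRC2ctrl and 13.1% for WT. Among rows of 5000 bp or more, the shares were 3.27% for PRC1cKO, 1.52% for PRC1ctrl, 1.02% for PRC2ctrl and 1.16% for WT. Read depth is unknown from these files. The PRC1cKO, PRC1ctrl, PRC2ctrl and WT P6 lists covered 530.6, 528.4, 558.4 and 532.5 Mb, and their lowest total signals were 10307, 10598, 10510 and 9546.

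The PRC1cKO-only regions were narrow and weak for their list. Total signal is the authors' value for a row, summed over its bases, and was used only within a list. The regions had a median width of 4155.5 bp and a median total signal of 13520, against 6636 bp and 30768 for all PRC1cKO P6 rows of at least 3000 bp. Their mean signal per base had a median of 3.32, against 4.46 for all wide rows. A total signal under 2 times the lowest of the list was found for 85.4% of them, against 33.3% of all wide rows, and 185 (4.98%) reached the median of the list, against 54.4%. The strongest PRC1cKO-only region ranked 11974 of 47667 autosomal rows by total signal. Regions private to a control were narrow too, with median widths of 4017 bp for PRC1ctrl-only, 3768.5 bp for PRC2ctrl-only and 3627 bp for WT-only regions. The upper quartile of width was 5004 bp for PRC1cKO-only regions. In the control sets it was lower, at 4684 bp for PRC1ctrl-only, 4423 bp for PRC2ctrl-only and 4180 bp for WT-only regions.

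**Figure D1:**
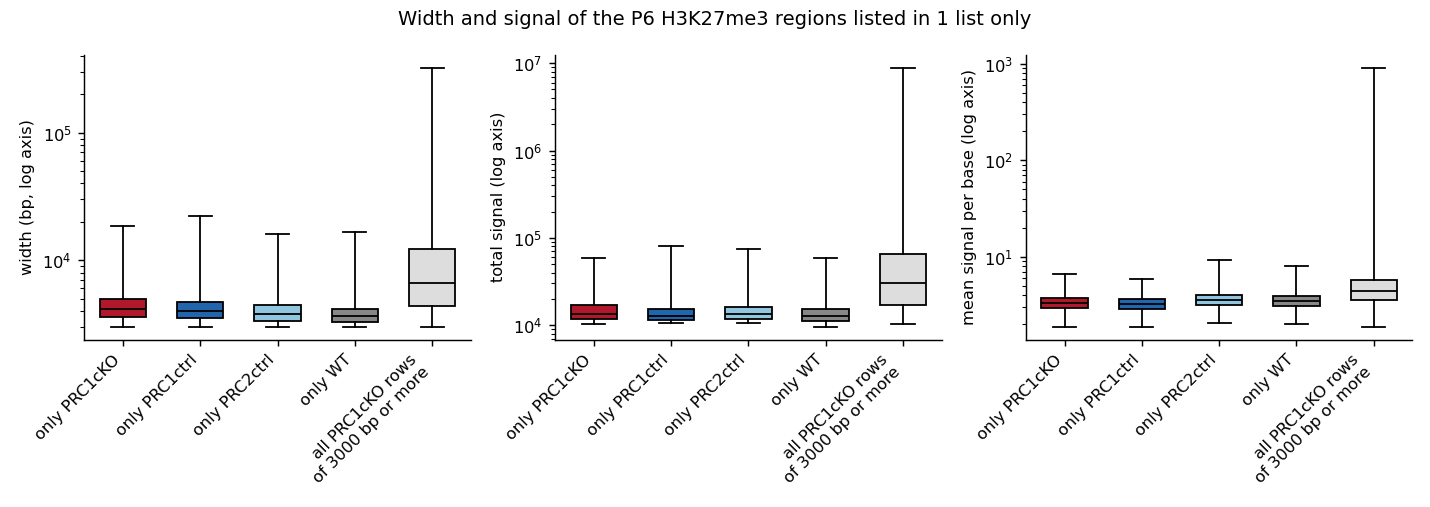
Width, total signal and mean signal per base (log axes) of P6 H3K27me3 regions listed only in PRC1cKO, PRC1ctrl, PRC2ctrl or WT, and of all PRC1cKO P6 rows of at least 3000 bp. Boxes span the quartiles, the line is the median and the whiskers reach the lowest and highest value. The 4 sets have low medians, with 4155.5 bp for PRC1cKO-only regions against 6636 bp for all wide PRC1cKO rows.

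The width limit cut through a continuous run of rows. The 5 narrowest regions were 3000 to 3002 bp wide, with total signals of 10423 to 13559, and the 5 widest rows left out were 2997 to 2999 bp wide, with 10559 to 12094. A further 769 private PRC1cKO rows were under 3000 bp. The regions stood apart from the control domains by a median of 9.86 kb to the nearest P6 control row (quartiles 4.58 and 22.7 kb). Of all regions, 1024 (27.6%) lay within 5 kb of such a row, and 90 (2.42%) lay more than 100 kb away.

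A day later, in growing oocytes, a PRC1cKO row met 834 of the 3716 regions (22.4%, 95% interval 21.1 to 23.8), against 482 for PRC1ctrl (13.0%, 11.9 to 14.1) and 563 for WT (15.2%, 14.0 to 16.3). The P7 lists were not used to choose the regions. Intervals are exact Clopper-Pearson and cover counting error only, and neighbouring regions are not independent. All wide PRC1cKO P6 rows were met more often, at 74.9% in the PRC1cKO P7 list, 62.8% in PRC1ctrl and 66.2% in WT. The PRC1cKO P7 list covered 11.3% of the bases of the regions and 3.51% of all autosomal bases outside the P6 controls. For the PRC1ctrl P7 list these were 7.35% and 6.86%, and for WT P7 10.7% and 9.83%. Thus the control P7 lists covered the regions about as densely as other bases outside the P6 controls, and the PRC1cKO P7 list covered them more densely.

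The choice of regions favours this direction, since it used presence in PRC1cKO and absence from the controls a day earlier, so the mirror sets were read beside it. PRC1ctrl-only regions were met by the PRC1cKO P7 list in 30.3% and by the PRC1ctrl P7 list in 42.7%. PRC2ctrl-only regions were met in 25.5% by PRC1cKO P7 and in 27.3% by PRC1ctrl P7. WT-only regions were met in 34.2% by PRC1cKO P7 and in 47.3% by WT P7. PRC2cKO-only regions, like the PRC1cKO-only ones, were met more often by PRC1cKO P7 (16.3%) than by PRC1ctrl P7 (8.02%). The opposite order in the control sets did not hold under another setting: with every list trimmed to equal covered length, the PRC1cKO P7 and PRC1ctrl P7 lists met 39.7% and 8.85% of PRC1cKO-only regions, 48.0% and 47.7% of PRC1ctrl-only, 45.9% and 21.2% of PRC2ctrl-only and 55.5% and 41.9% of WT-only regions. The PRC1cKO-only share in the P7 list of its own genotype was lower than that of PRC1ctrl-only or WT-only regions in theirs. The PRC1cKO P7 share was above the PRC1ctrl P7 share on 19 of 19 autosomes, and above the WT P7 share on 17 of 19. Since the autosomes are parts of the same lists, these tallies are a description and not replication. Counted by region, 537 (14.5%) were in PRC1cKO P7 and in neither PRC1ctrl P7 nor WT P7, 297 (7.99%) were in PRC1cKO P7 and a control, and 454 (12.2%) were in a control at P7 and not in PRC1cKO.

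**Figure D2:**
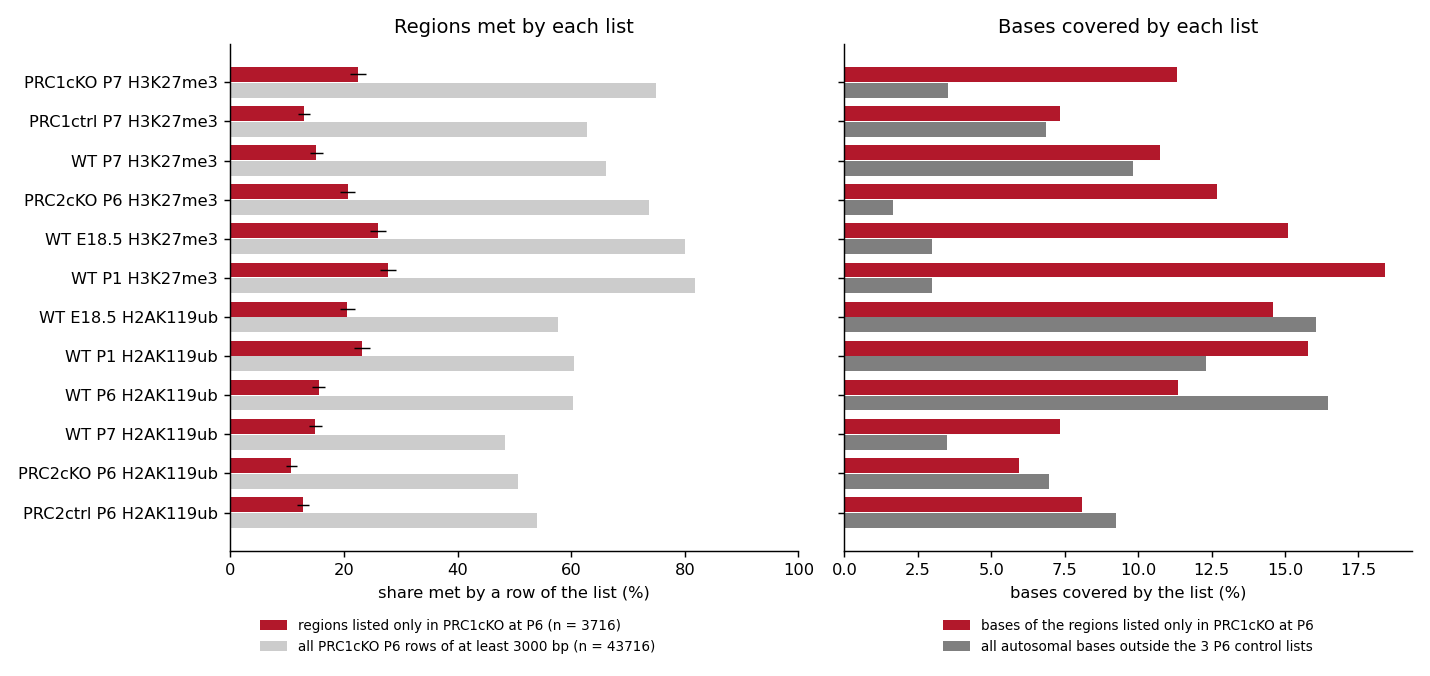
Left, share of the 3716 PRC1cKO-only regions (red, with exact 95% intervals) and of all 43716 PRC1cKO P6 rows of at least 3000 bp (grey) met by a row of each list (%). Right, share of the bases of the regions (red) and of all autosomal bases outside the P6 controls (grey) that each list covers (%). The red bars exceed the grey ones most in the right panel for WT P1, WT E18.5, PRC2cKO P6 and PRC1cKO P7 H3K27me3.

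Before P6, many of the regions were met by a WT H3K27me3 row over at least 1 bp, which is called an earlier mark below. The E18.5 list met 964 of them (25.9%, 24.5 to 27.4) and the P1 list met 1029 (27.7%, 26.3 to 29.2). All wide PRC1cKO P6 rows were met at 80.1% and 81.8%. The E18.5 list covered 15.1% of the bases of the regions, against 2.99% of all bases outside the P6 controls, and the P1 list 18.4%, against 2.98%. Both stages met 571 regions, E18.5 alone 393 and P1 alone 458. An earlier mark was not more frequent than in regions private to PRC2ctrl or WT: at E18.5 or P1, WT lists met 38.3% of PRC1cKO-only regions, 25.4% of PRC1ctrl-only, 48.1% of PRC2ctrl-only and 44.9% of WT-only regions.

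The PRC2cKO list of P6 met 768 of the regions (20.7%, 19.4 to 22.0), where all wide PRC1cKO rows were met at 73.6%. Despite the loss of Eed, that list held 49615 rows over 428.6 Mb, with a lowest total signal of 6790. Whether its rows reflect remaining H3K27me3 or background cannot be told apart here. The PRC2cKO list covered 12.7% of the bases of the regions and 1.65% of all bases outside the P6 controls. The regions shared with PRC2cKO were those with an earlier mark more often: 57.2% of the 768 were met by WT E18.5 or P1, against 33.3% of the 2948 others. Regions of high total signal, which were also wider, were met more often by each of these lists, as given below. The contrast was not adjusted for width or signal. Of the 1422 regions marked earlier, PRC2cKO met 30.9%, PRC1cKO P7 25.7% and PRC1ctrl P7 12.9%. Of the 2294 not marked earlier, PRC2cKO met 14.3%, PRC1cKO P7 20.4% and PRC1ctrl P7 13.0%. In PRC1ctrl-only regions the PRC2cKO share was 8.73%, in WT-only regions 13.1% and in PRC2ctrl-only regions 21.1%. The PRC2ctrl-only share was thus as high as that of the PRC1cKO-only regions.

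Outside the PRC1cKO P6 list, 1329 regions (35.8%) were met by no other H3K27me3 list, and 968 (26.0%) by none of the other 15 lists of either mark. The 4 classes of 929 regions each, by total signal in the PRC1cKO P6 list, differed in this. From the lowest to the highest class, the PRC1cKO P7 list met 17.4%, 18.1%, 22.8% and 31.4%, and the PRC1ctrl P7 list met 11.8%, 13.9%, 12.6% and 13.6%. The PRC2cKO share went up over the classes as 11.0%, 13.6%, 21.7% and 36.4%, and the WT E18.5 share was 19.8%, 18.0%, 28.5% and 37.5%. The WT P6 H2AK119ub share was 16.0%, 15.8%, 14.1% and 16.1%, while the WT P7 H2AK119ub share was 10.3%, 11.5%, 12.6% and 25.4% and the PRC2cKO P6 H2AK119ub share 8.50%, 10.0%, 11.2% and 13.0%. The highest class was also the widest, with a median of 5836 bp against 3658 bp for the lowest, and a wider region is met by 1 bp more easily.

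**Figure D3:**
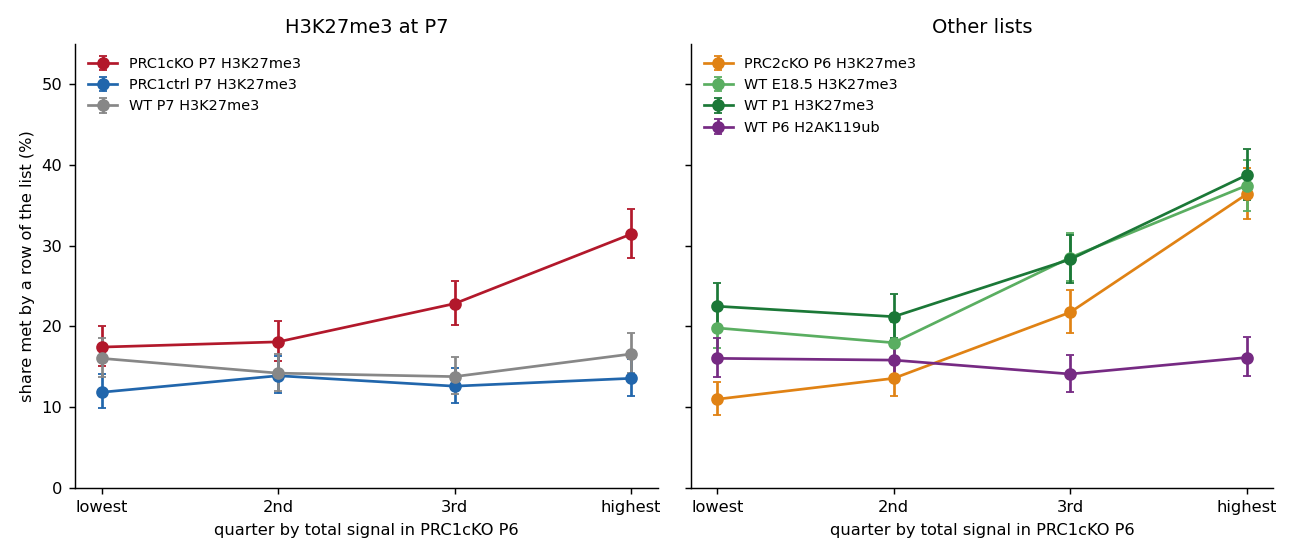
Share of PRC1cKO-only regions met by other lists (%), with exact 95% intervals, in 4 classes of 929 regions by total signal in the PRC1cKO P6 list. The PRC1cKO P7, PRC2cKO P6, WT E18.5 and WT P1 lines climb toward the highest class, while the PRC1ctrl P7 line stays between 11.8% and 13.9% and WT P6 H2AK119ub between 14.1% and 16.1%.

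H2AK119ub is the mark of PRC1. The WT P6 H2AK119ub list met 577 of them (15.5%, 14.4 to 16.7), against 60.3% of all wide PRC1cKO P6 rows. It met 6.86% of PRC2cKO-only regions, and 51.1% of PRC1ctrl-only regions (49.1 to 53.2), 30.8% of PRC2ctrl-only (28.8 to 32.9) and 46.8% of WT-only regions (45.1 to 48.4). The share was thus lower for regions private to PRC1cKO than for those private to each of the 3 controls in these lists, and with 1 list per group the difference between genotypes was not tested. With the lists trimmed to equal covered length the order held, at 3.53% for PRC1cKO-only, against 31.6%, 6.96% and 22.7% for PRC1ctrl-only, PRC2ctrl-only and WT-only regions. By bases, WT P6 H2AK119ub covered 11.4% of the regions and 16.5% of all bases outside the P6 H3K27me3 controls.

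At the other stages, WT H2AK119ub met 20.6% of the regions at E18.5, 23.2% at P1 and 15.0% at P7, where all wide rows were met at 57.6%, 60.5% and 48.3%. By bases the stages differed in direction: the regions were covered over 14.6% at E18.5, 15.8% at P1 and 7.33% at P7, against 16.1%, 12.3% and 3.48% of all bases outside the P6 H3K27me3 controls. WT H2AK119ub was thus less dense at the regions than elsewhere outside the controls at E18.5 and P6, and denser at P1 and P7. The WT P7 H2AK119ub list was the shortest of the 16, with 244.2 Mb covered, and that of WT P6 the longest, with 728.3 Mb. At P6, PRC2cKO H2AK119ub met 397 regions (10.7%) and PRC2ctrl H2AK119ub 475 (12.8%), against 50.6% and 54.0% of all wide rows. At least 1 of the 6 H2AK119ub lists met 1386 regions (37.3%), and all 6 met 88 (2.37%).

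**Figure D4:**
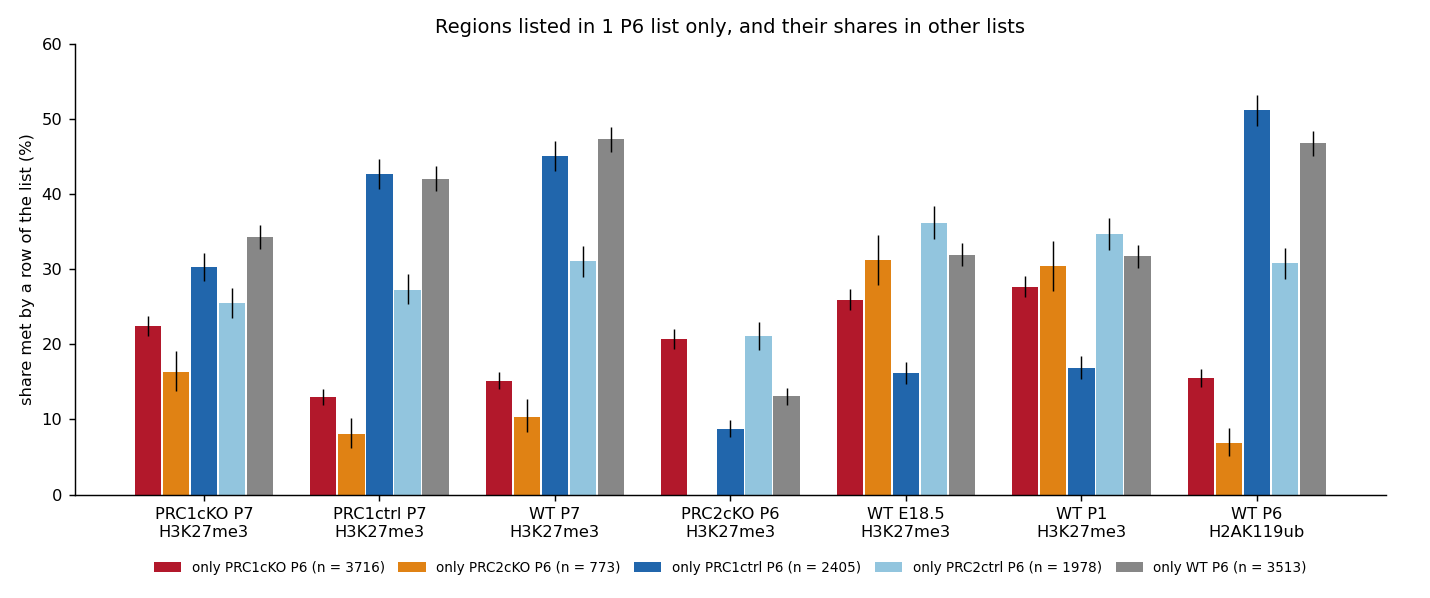
Share (%) of regions listed in PRC1cKO only (red), PRC2cKO only (orange), PRC1ctrl only (dark blue), PRC2ctrl only (light blue) or WT only (grey) at P6 that a row of 7 other lists meets, with exact 95% intervals. For WT P6 H2AK119ub the PRC1cKO-only share is 15.5%, under the 51.1%, 30.8% and 46.8% of the 3 control sets. PRC2cKO-only regions have no bar in their own list.

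The regions lay mostly outside protein-coding genes and away from their starts. A window reaching 1 kb up and down from a protein-coding start was touched by 124 of them (3.34%, 2.78 to 3.97), against 14.1% of all wide PRC1cKO P6 rows, and a gene body was met by 834 (22.4%, 21.1 to 23.8), against 37.6%. Where the annotation used here gives no strand (4208 of 20665 genes), windows at both gene ends took the place of the start. Protein-coding gene bodies hold 40.0% of the autosomal length and 21.5% of the bases of the regions. They hold 36.0% of those of PRC1ctrl-only, 29.1% of PRC2ctrl-only, 29.6% of WT-only and 14.7% of PRC2cKO-only regions. The median distance to the nearest window was 136 kb, against 62.3 kb for all wide rows. More than 100 kb away lay 55.5%, against 40.7% of all wide rows, 58.7% of PRC2cKO-only and 53.8% of PRC2ctrl-only regions. In PRC1ctrl-only and WT-only regions the shares were 47.1% and 46.9%. A place far from gene windows was thus not particular to PRC1cKO-only regions. For gene windows the control sets were close, at 4.45% for PRC1ctrl-only, 3.29% for PRC2ctrl-only and 3.56% for WT-only regions.

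The H2AK119ub state of the regions differed with their place. Shares by place were computed for these regions alone, not for all wide rows or the control-only sets. Whether the differences by place are particular to these regions was therefore not tested. Of the 124 at a gene window, 67 (54.0%, 44.9 to 63.0) were met by WT P6 H2AK119ub, against 139 of the 722 over a gene body only (19.3%, 16.4 to 22.3) and 371 of the 2870 outside both (12.9%, 11.7 to 14.2). At P7, PRC1cKO and PRC1ctrl lists met 22.6% and 21.8% of the 124, and the WT list met 38 of them (30.6%). For the 2870 regions outside genes the PRC1cKO, PRC1ctrl and WT P7 shares were 23.0%, 12.6% and 14.4%. The PRC2cKO P6 list met 8.87% of the 124, against 21.7% of the 2870.

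The regions were spread over all 19 autosomes, from 0.903 per Mb on chromosome 5 to 2.35 per Mb on chromosome 14. Chromosomes with more genes per Mb held fewer of them (Spearman's rho -0.68 and Pearson's r -0.57 across 19 chromosomes of the same lists, given as a description). The relation was not computed for all wide rows or for control-only sets, so it is not read as particular to these regions. On chromosomes 5 and 14 they were 5.32% and 11.8% of wide rows, where PRC1ctrl-only regions were 4.21% and 6.80%. Chained at gaps under 100 kb, they formed 2847 groups, of which 2240 were a single region, and 26 groups held 5 or more. The 5 fullest groups had 6 regions each. In the group at chr14:18921039-19086445, all 6 were met by WT E18.5 or P1 H3K27me3 and none by PRC1cKO P7. The group at chr11:10643308-10920654, with no gene window, had 1 of 6 marked earlier and 1 in PRC1cKO P7. That at chr8:128900032-129213917, over the paired genes Ccdc7a and Ccdc7b, had 4 marked earlier, 2 in PRC1cKO P7 and 1 in PRC1ctrl P7.

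The largest regions were intergenic for the most part. Of the 10 widest, all at least 14.5 kb, 1 lay in a gene body, 8 were met by PRC2cKO P6, 7 by WT E18.5 or P1, 6 by PRC1cKO P7 and 1 by PRC1ctrl P7 H3K27me3. Over all regions these lists met 20.7%, 38.3%, 22.4% and 13.0%. Such wide regions are met by 1 bp more easily, and many of the overlaps were short beside the region. The widest, chr12:10973310-10991806 (18497 bp, total signal 50428), lay 159 kb from the nearest window, that of the potassium channel subunit gene Kcns3. PRC2cKO P6 covered 4.53 kb of it and WT E18.5 2.87 kb, no P7 list met it, and the nearest P6 control row lay 0.738 kb away. The fourth, chr12:9524422-9540533 (16.1 kb), lay 33.9 kb from the window of Osr1, a developmental transcription factor, and WT P1 alone met it, over 2.57 kb. That at chr7:12071328-12087290 (16.0 kb), 30.0 kb from the pheromone receptor gene Vmn1r77, was met over 2.68 kb by PRC1cKO P7 and by no control at P7, with 3.40 kb in PRC2cKO P6, 3.89 kb in WT E18.5 and 1.95 kb in WT P1.

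By total signal, the strongest region was chr14:10608253-10622043 (13.8 kb, total signal 58943), inside Fhit, which encodes a diadenosine triphosphate hydrolase. PRC1cKO P7 covered 2.31 kb of it, PRC1ctrl P7 3.48 kb and WT P7 4.05 kb, so this region was not private at P7. The next, chr19:18217189-18232701 (15.5 kb, 58231), lay 380 kb from the proprotein convertase gene Pcsk5, with 2.16 kb in PRC1cKO P7, none in PRC1ctrl P7 or WT P7, 5.67 kb in PRC2cKO P6 and 8.51 kb in WT E18.5. Of the 10 strongest, 8 were marked in WT at E18.5 or P1, 5 in PRC1cKO P7, 2 in PRC1ctrl P7 and 1 in WT P6 H2AK119ub. Over all regions these lists met 38.3%, 22.4%, 13.0% and 15.5%. The 10 strongest regions too were wide, at least 9.35 kb, so the same limit holds.

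Among the 537 regions in PRC1cKO P7 and no control at P7, the 10 of highest signal had total signals of at least 37770. Of these 10, 7 were marked in WT at E18.5 or P1, against 38.3% of all regions. None was met by WT P6 H2AK119ub, which met 15.5% of all regions. WT P7 H2AK119ub met 4 of the 10 and PRC2ctrl P6 H2AK119ub 2, where these lists met 15.0% and 12.8% of all regions. WT H2AK119ub met 1 at E18.5 and 1 at P1. With only 10 regions, these counts are a description. At chr19:51434452-51448979 (14.5 kb), 756 kb from the sorting receptor gene Sorcs1, PRC1cKO P7 covered 4.29 kb, PRC2cKO P6 4.20 kb, WT E18.5 5.88 kb and WT P1 7.06 kb. At chr14:122253290-122265188 (11.9 kb), inside the mitochondrial enzyme gene Clybl, PRC1cKO P7 covered 3.53 kb and WT E18.5 10.8 kb. Private at P6 and P7 and marked in no other list were chr15:71577643-71593924 (16.3 kb) inside Fam135b, with 1.63 kb in PRC1cKO P7, and chr15:20883810-20890370 (6.56 kb) inside the cadherin gene Cdh12, with 1.72 kb.

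PRC1cKO-only regions covered a window of 125 of 20665 protein-coding genes (0.605%). More broadly, 257 genes (1.24%) had a window met in PRC1cKO P6 and in no P6 control: 112 through these regions, 18 through private rows under 3000 bp and 127 through rows that met a control row elsewhere. Long noncoding RNA genes were covered about as rarely, with 87 of 12408 (0.701%). In the other direction, 523 genes were met in all 3 controls and not in PRC1cKO P6. Gene lists are described by how many members a PRC1cKO-only region covered. At the overall share of 0.605%, the counts of 0 to 2 in the lists by name are near the background and are read as a description of single genes.

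Of 64 oocyte growth and maternal-effect genes, 1 was covered, Zfp57, whose protein keeps imprinted methylation through early development. Its region, chr17:36997952-37001292 (3.34 kb, total signal 10639), was covered in full by WT H3K27me3 at E18.5 and at P1 and met by no P7, PRC2cKO or H2AK119ub list. A further 3 oocyte genes were met in PRC1cKO P6 and no P6 control without such a region: 0.301 kb of the Oosp3 window, 1.64 kb of Nlrp14 and 2.00 kb of Wee2, the oocyte kinase that holds meiotic arrest. With Zfp57 that is 4 of 64, where 1.24% of all genes were met in this way. In all, 14 of the 64 were met by any PRC1cKO P6 row, against 8 in PRC1ctrl, 14 in PRC2ctrl and 11 in WT.

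Of 42 germline identity and genome defence genes, Dnmt1 was covered, at the start shown above and not over all its windows. Its region, chr9:20957340-20962403 (5.06 kb), was met by no other H3K27me3 list, but lay wholly in H2AK119ub at WT P1, WT P6 and PRC2cKO P6, with 4.52 kb in PRC2ctrl P6. Of 48 spermatogenesis genes, the neighbouring testis kinase genes Tssk1 and Tssk2 were covered by the same region, chr16:17894910-17898386 (3.48 kb). That region was in WT H3K27me3 at E18.5 (1.74 kb) and P1 (2.04 kb) and wholly in WT H2AK119ub at E18.5, P1 and P6. The other covered members of the germline lists were Gm8300, of 31 two-cell genes, and none of 45 meiotic prophase genes, 37 H3K27me3-dependent imprinted genes or 44 canonical imprinted genes.

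Classical Polycomb targets were mostly met in the controls already. At P6, Hox genes were met in 38 of 39 cases in PRC1cKO and in all 39 in each control, and none was covered by a PRC1cKO-only region. Of 121 developmental transcription factors, 1 was covered, the heart and gonad factor gene Gata4, whose windows were met in the PRC1ctrl, PRC2ctrl and WT P6 lists as well, at the other gene end. Its region, chr14:63199102-63202297 (3.20 kb), lay at the low-coordinate end of the gene, which may not be its start since no strand is given. It was wholly in WT H3K27me3 at E18.5 and P1 and in WT H2AK119ub at E18.5, P1 and P6. Of 61 synaptic genes, Dlg2, a postsynaptic scaffold, was covered at an internal start by an 11.1 kb region that WT E18.5 met over 1.83 kb. No member was covered among 65 developmental signalling genes, 64 neuronal channels and receptors, 51 Polycomb genes, 38 growth signalling genes or 57 protocadherins.

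Of 34 cell cycle inhibitor and apoptosis genes, Rb1 and Bcl2 were covered. The Rb1 region, chr14:73190638-73194310 (3.67 kb), lay at the low-coordinate end of this tumour suppressor gene, again with no strand given, and was met by no list but WT P7 H2AK119ub. The Bcl2 region, chr1:106711186-106714961 (3.78 kb), crossed the start and was in WT H3K27me3 at E18.5 (1.66 kb) and P1 (1.83 kb), wholly in WT E18.5 H2AK119ub, and over 1.71 kb in WT P6 H2AK119ub. Neither was met by PRC1cKO P7.

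Receptor and enzyme families were matched by symbol pattern, and their covered shares are also near the 0.605% of all genes. Covered were 8 of 1100 olfactory receptor genes, 3 of 352 vomeronasal receptor genes, 2 of 386 zinc finger genes, 2 of 351 solute carriers, 1 of 96 cytochrome P450 and UDP-glucuronosyltransferase genes and 1 of 62 serpins. Olfr1497, in a 6.73 kb region, Olfr1427 and Vmn1r33 were met by none of the other lists of either mark. Olfr873 was met by PRC2cKO P6 (2.22 kb) and WT P1 (2.42 kb). The Slc37a4 region (4.65 kb), at the gene of the endoplasmic reticulum glucose-6-phosphate transporter, lay wholly in WT P6 H2AK119ub and in no other H3K27me3 list. No keratin gene (of 105), housekeeping gene (37) or ribosomal protein gene (81) was covered, and none of 58 C-type lectin and NK receptor genes matched by symbol pattern, a list that does not hold Cd209c.

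Markers of other ovarian cells were not among the covered genes: none of 36 granulosa and stroma genes and none of 27 blood and endothelial genes. Peak lists of a repressive mark do not measure expression, and at P6 the granulosa and stroma genes were met in 32 of 36 cases in PRC1cKO, 33 in PRC1ctrl, 31 in PRC2ctrl and 32 in WT.

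Outside the lists, the 15 genes with the longest window coverage included several that WT oocytes had marked earlier. The region at Th, the tyrosine hydroxylase gene of catecholamine synthesis, was chr7:142891911-142902544 (10.6 kb, total signal 46537). WT H3K27me3 at E18.5 and at P1 covered it in full, no P7 list met it, and WT H2AK119ub covered it in full at E18.5 and P1 and over 7.14 kb at P6. Optn, the gene of an autophagy receptor, had an 8.48 kb region with 7.59 kb in WT H3K27me3 at E18.5 and 7.29 kb at P1. Both regions were thus mostly or fully covered by WT H3K27me3 rows before P6 and met by no row of the P6 controls.

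The regions at other genes differed in which lists met them. Mmp23, a metalloprotease gene, had a 5.07 kb region wholly in H2AK119ub at WT E18.5, P1 and P6, in PRC2cKO P6 and in PRC2ctrl P6, and in no other H3K27me3 list. Gnmt, which encodes glycine N-methyltransferase, had a 6.55 kb region wholly in WT P6 H2AK119ub, with 3.23 kb in PRC1cKO P7 H3K27me3 and none in PRC1ctrl P7 or WT P7. Cd209c, of the C-type lectin type, had a 3.85 kb region that PRC1cKO P7 covered in full and that no further list met. At Mip, the lens aquaporin gene, the 7.65 kb region was not met by PRC1cKO P7 and was covered in full by PRC1ctrl P7 and WT P7, with 6.92 kb in WT E18.5 H3K27me3. Bmpr1b, a BMP receptor gene, had the longest window coverage, 3.92 kb over several starts. That exceeds the 3.58 kb width of its strongest region, so a further PRC1cKO-only region covered it too. The strongest region met no other H3K27me3 list, and the state of the further region is not given here.

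**Figure D5:**
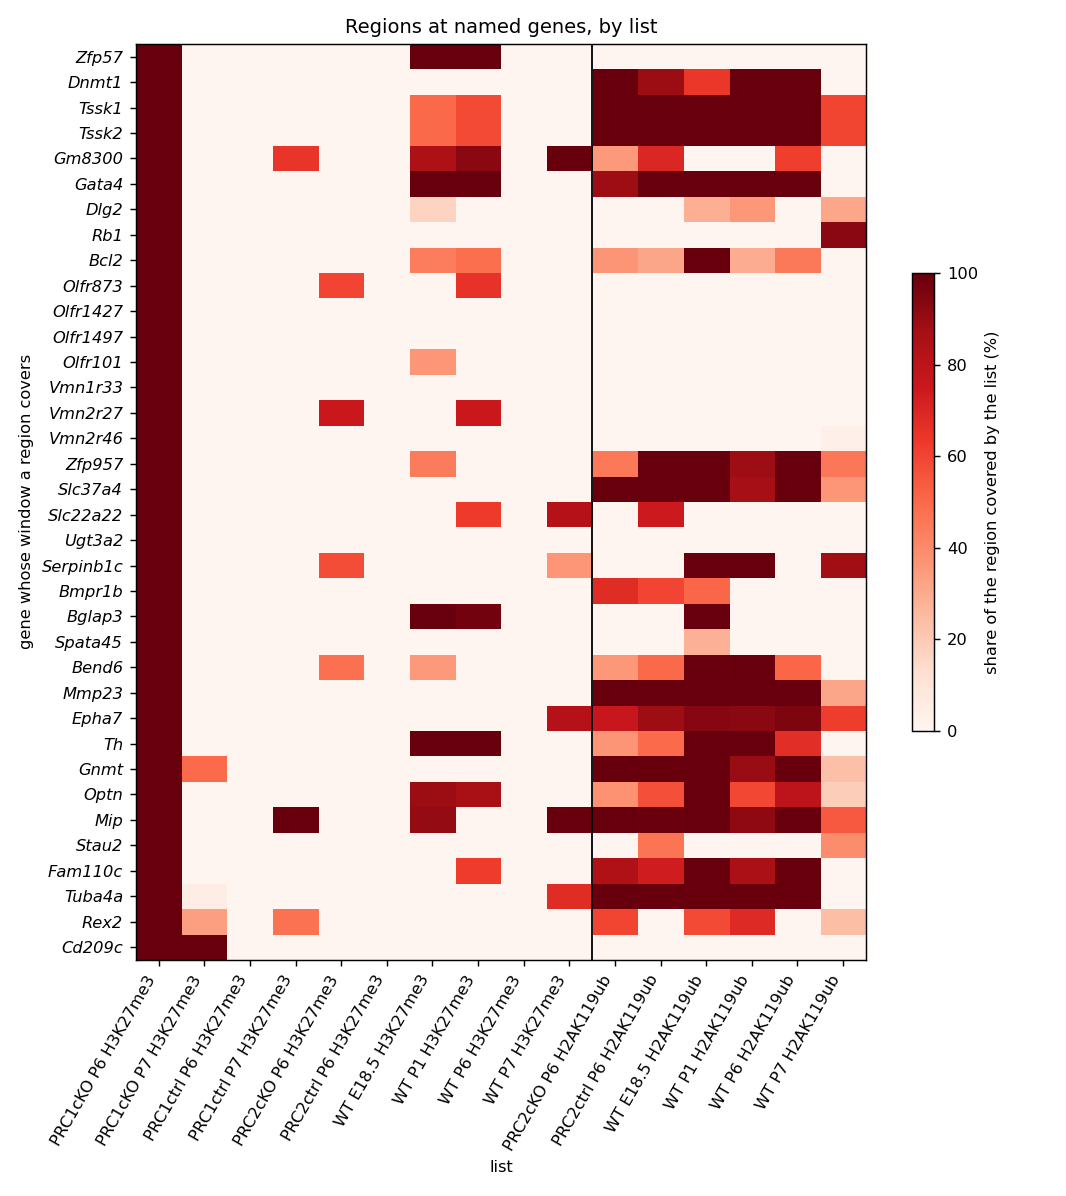
Share (%, colour) of the PRC1cKO-only region at each of 36 named genes (rows) that each of the 16 lists (columns, H3K27me3 left of the line and H2AK119ub right of it) covers. The PRC1cKO P6 column is full and the 3 P6 control columns are empty by the choice of regions. Where further regions covered a gene, as at Bmpr1b, only that of highest total signal is shown. Of the 35 regions, 4 were met by PRC1cKO P7, 3 by PRC1ctrl P7 and 6 by WT P7 H3K27me3. WT E18.5 met 13, WT P1 12 and WT P6 H2AK119ub 16. In that order, the lists met 22.6%, 21.8%, 30.6%, 36.3%, 33.1% and 54.0% of the 124 regions at a gene window. Of all 3716 regions they met 22.4%, 13.0%, 15.2%, 25.9%, 27.7% and 15.5%.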

How the data were processed

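CUT&Tag of H3K27me3 (10 groups) and H2AK119ub (6 groups) in mouse oocytes gave 1 deposited peak list per group of 2 samples. A fixed ratio of Drosophila S2 cells, for example 2000 to 1000 oocytes, was spiked in per the labels' protocols. The submitters' processing notes name SAMtools, deepTools, Picard 3.0.0, Bowtie2 and Trim Galore 0.6.10, with builds mm10, GRCm38 and dm6. Peak caller, threshold, S2 scaling and sample pooling were not given in the sources used here. Judged from the values, the deposited signal is a whole number summed over each row, and the deposited top signal, taken as a score with no stated scale, is the highest value within it. Signals were not compared between lists, except for the lowest totals and the plotted distributions, given as a description.

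Intervals were intersected with code in Python 3.11.15, numpy 2.4.6 and pandas 2.3.3, tested on simulated data, and exact 95% intervals came from SciPy 1.17.1. A region was met by a list when a row covered at least 1 bp of it. Genes, starts and promoters came from RefSeq tables of GRCm38.p6, with strand known for 16457 of 20665 autosomal protein-coding genes. Of 929 listed names, 884 were in the annotation, and 10 further lists were matched by symbol pattern. Since each group has 1 list, no replicate check or test could be made. The regions and the gene lists were chosen with earlier results of these data known. Named regions were the 10 widest, the 10 of highest total signal, the 5 nearest the width limit on each side, the 5 fullest chained groups and the 10 of highest signal private to PRC1cKO at P7 too. Named genes were listed genes with a covered window, up to 4 per patterned family, and the 15 others of longest coverage. The text gives the informative ones of these in full. Alternatives in width, exclusion, overlap, trimming and gene windows were tried.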

Additional observations from a re-analysis of the deposited data

Results flagged for a closer look

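On the X chromosome, which the rule leaves out, the same selection gave 302 of 2781 PRC1cKO P6 rows of at least 3000 bp (10.9%, exact 95% interval 9.73 to 12.1), above the level in each control list: 5.71% for PRC1ctrl, 4.42% for PRC2ctrl and 5.15% for WT. Of these 302, 65 (21.5%) were met by PRC1cKO P7 and 18 (5.96%) by PRC1ctrl P7 H3K27me3. In PRC1ctrl-only regions of X the same shares were 21.1% and 6.58%, and in WT-only regions 25.7% and 11.7%, so the P7 contrast on X was not limited to PRC1cKO-only regions. The difference between X and the autosomes was not tested.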

How the results depend on the processing

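No paired analysis was possible because each group has 1 list and no result comes from a test; for the same reason no replicate could be left out. Of 83 recomputed values, 37 stayed within the exact interval of the reported share, or within 1.5 times the reported count, and 46 did not; those 46 follow. The PRC1cKO P7 share stayed above the PRC1ctrl P7 share in all 14 alternatives that give both. These alternatives reuse the same P7 lists and a choice of regions that favours this order, so the tally is not independent support. With trimmed lists, as given above, PRC1cKO P7 also met more of each control-only set than PRC1ctrl P7 did. Shares below are in the order PRC1cKO P7, PRC1ctrl P7, WT E18.5 or P1 H3K27me3 and WT P6 H2AK119ub. With PRC1ctrl as the only control, 8469 regions had shares of 37.8%, 22.8%, 63.2% and 22.6%. With PRC1ctrl, PRC2ctrl or WT dropped from the exclusion, they were 27.8%, 16.3%, 42.8% and 18.6%, then 25.5%, 14.5%, 46.2% and 16.9%, then 26.9%, 15.8%, 45.9% and 17.2%. With PRC2cKO P6 excluded as well, PRC1cKO P7 met 21.0%, WT E18.5 or P1 33.3% and WT P6 H2AK119ub 17.9%. With every list trimmed to equal covered length, the shares were 39.7%, 8.85%, 57.6% and 3.53%; with the other list alone trimmed to the shortest of its mark, 9.63%, 4.47%, 15.9% and 0.996%; and with 50% of the region to be covered, 10.8%, 8.15%, 26.7% and 12.3%. At or above the median signal of the list, 185 regions had 38.4%, 14.6%, 59.5% and 17.3%, with 2.70% at a gene window. At 5000 bp or more, 934 regions had 27.5% in PRC1cKO P7, 45.3% in WT E18.5 or P1 and 2.46% at a gene window. With no control row within 5 kb, 36.6% were met by WT E18.5 or P1. The gene share was 7.10% for windows of 5 kb, 22.4% for whole gene bodies and 4.06% with both ends of every gene, an alternative chosen after seeing the data. The cause of these shifts was not tested beyond what each setting itself changes. Read depth is unknown, and regions near the lowest total signal of a list may enter or leave it with depth.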

Other observations

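A window of a long noncoding RNA gene was touched by 85 of the 3716 regions (2.29%), against 10.1% of all wide PRC1cKO P6 rows. For PRC1ctrl-only regions the share was 3.99%, for PRC2ctrl-only 2.28% and for WT-only 4.50%. The 769 private PRC1cKO rows under 3000 bp resembled the wider ones, with 23.4% met by PRC1cKO P7 and 2.60% at a protein-coding window.

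The PRC1cKO P7 share changed little with the distance to the nearest P6 control row: 24.8% of regions within 5 kb, 22.3% from 5 to 20 kb, 20.3% from 20 to 100 kb and 21.1% of the 90 beyond 100 kb. In the same bins the PRC1ctrl P7 share was 14.7%, 13.1%, 11.4% and 6.67%, the last from 6 regions.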
